A study of Mus musculus with 8 samples.

Results

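LIN28, HMGA2 and the IGF2BP proteins form a set of growth timing genes that are active in fetal tissues and decline as organs mature. The set examined here had 6 members, Lin28a, Lin28b, Hmga2, Igf2bp1, Igf2bp2 and Igf2bp3, chosen by name. Of these 6, 4 were measured among 22180 genes: Lin28a, Lin28b, Hmga2 and Igf2bp3 each had 1 probe set that named no other gene. The only probe set naming Igf2bp1 also named a microRNA gene, so Igf2bp1 was not analysed here, and neither was Igf2bp2.

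The members were measured on 1-colour arrays in kidneys of 8 mouse embryos at E14.5, in mid-gestation. In 4 embryos Grb2, which encodes an adaptor between receptor tyrosine kinases and RAS, was knocked out in the ureteric bud, the epithelium that branches into the collecting ducts (genotype Grb2 UB-cKO, called Grb2_cKO here). The other 4 were wild-type controls of the same litter. Which transgene drives the deletion is not stated in the labels. Both kidneys of an embryo were pooled into 1 sample, so n counts embryos. In RNA of a whole organ, fewer cells of a type and less RNA per cell cannot be told apart.

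LIN28A and LIN28B are RNA-binding proteins that hold the loop of let-7 precursors and block their maturation, so that mature let-7 microRNAs accumulate only when LIN28 is low. Mature let-7 in turn represses transcripts that include Lin28b, Hmga2 and the Igf2bp genes. HMGA2 is a chromatin protein that bends AT-rich DNA in dividing fetal cells, and the IGF2BP proteins bind messenger RNAs such as Igf2 and set their stability and translation. In the mouse kidney, LIN28B and let-7 are known to set how long nephron progenitors are kept and nephrons are formed.

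The mature let-7 sequences are shown because they link the members: LIN28 acts on their precursors, and the seed in capitals, bases 2 to 8, is the part that pairs with targets such as Hmga2. The 9 distinct sequences come from 11 precursor genes with a 5p arm in RefSeq (GRCm38.p6), and all 11 share the seed GAGGUAG.
mmu-let-7a-5p: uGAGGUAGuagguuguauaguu
mmu-let-7b-5p: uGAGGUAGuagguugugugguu
mmu-let-7c-5p: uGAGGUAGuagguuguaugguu
mmu-let-7d-5p: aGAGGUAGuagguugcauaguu
mmu-let-7e-5p: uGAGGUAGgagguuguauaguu
mmu-let-7f-5p: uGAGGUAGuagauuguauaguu
mmu-let-7g-5p: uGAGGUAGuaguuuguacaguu
mmu-let-7i-5p: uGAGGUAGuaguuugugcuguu
mmu-miR-98-5p: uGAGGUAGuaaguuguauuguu

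LIN28 zinc knuckles are known to bind GGAG in the precursor loop. That motif was found between the arms, with up to 3 bases of an arm allowed, in 8 of the 11 hairpins and not in the other 3. The hairpins of the 3 precursor genes that passed the test below are shown with GGAG in capitals, and that of Mir98, which lacks the motif there, for contrast. They lie at chr17:17830352-17830444 (plus strand) for Mirlet7e, chr16:77599657-77599750 (plus) for Mirlet7c-1, chr13:48537829-48537917 (minus) for Mirlet7f-1 and chrX:151913214-151913321 (plus) for Mir98. A match is a description of the letters, not a measured binding site.
Mirlet7e: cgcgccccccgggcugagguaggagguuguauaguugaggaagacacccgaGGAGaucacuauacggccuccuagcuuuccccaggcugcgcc
Mirlet7c-1: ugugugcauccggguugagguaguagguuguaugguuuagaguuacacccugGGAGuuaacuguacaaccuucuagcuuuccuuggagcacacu
Mirlet7f-1: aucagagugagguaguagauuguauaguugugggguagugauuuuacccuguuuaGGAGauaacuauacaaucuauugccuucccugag
Mir98: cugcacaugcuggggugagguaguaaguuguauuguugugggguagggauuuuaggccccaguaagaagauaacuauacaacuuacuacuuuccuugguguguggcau

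Several facts of the series bear on every value. Over all genes 28.1% passed the threshold (6227 of 22180, limma, Benjamini-Hochberg adjusted p below 0.05), 14.3% lower and 13.7% higher in Grb2_cKO, and the groups' values did not overlap for 31.2% (16.0% lower, 15.2% higher). Grb2 stood at 8.36, 8.17, 8.22 and 8.06 in the Grb2_cKO kidneys and at 8.68, 8.65, 8.61 and 8.66 in controls, a log2 difference of -0.45 (SE 0.07, limma adjusted p = 0.0017). Which exons its probe set reads is unknown here, so this is only a partial check of the labels. Y-linked genes (mean of 3) averaged 9.94 to 10.1 across the Grb2_cKO group. Of the controls, only replicate 3 was as high (9.94), and the rest lay at 4.09 to 4.24, so Y-linked signal was nearly aligned with genotype. When this mean was added to the fit (the sex-adjusted fit below), 1246 genes passed. Kidney markers were present at high values: nephron progenitor genes averaged 10.03 to 10.21 in controls and stroma genes 10.4 to 10.54. Germ cell and gonad markers averaged 5.78 to 5.9 in controls and 5.75 to 5.95 in Grb2_cKO. No detection call was used here, so a dim probe set cannot be told from background.

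Of the 4 measured members, Hmga2 and Lin28b were lower in Grb2_cKO, and Lin28a and Igf2bp3 did not pass the threshold. The count of 2 lower of 4 stands beside 14.3% of all genes lower. With 4 genes it says little of the set, and the values of each gene carry the description. The median log2 difference of the 4 was -0.37, against 0.0058 over all genes. In the sex-adjusted limma fit 0 of the 4 passed, and 2, Lin28b and Hmga2, had an unadjusted p below 0.05 (0.0103 and 0.0127).

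Hmga2 had the largest fall of the 4. Its log2 values were 11.1, 11.1, 10.71 and 10.45 in Grb2_cKO replicates 1 to 4 and 11.51, 11.6, 11.59 and 11.77 in control replicates 1 to 4. All 4 Grb2_cKO embryos were below all 4 controls, and replicates 3 and 4 were lower than replicates 1 and 2. The means were 10.84 ± 0.32 and 11.62 ± 0.11 (SD, n = 4 each), a log2 difference of -0.78 (SE 0.14, 95% interval -1.1 to -0.46, limma adjusted p = 0.00286). This left 58.2% of the control level (46.6% to 72.7%). The exact permutation p was 0.0286, the smallest that 70 assignments of 4 of 8 embryos allow, and 1.27% of all genes had a lower log2 difference. Hmga2 no longer passed in the sex-adjusted fit, where its log2 difference was -0.75 (adjusted p = 0.108). The control that carries Y-linked signal, replicate 3, was at 11.59, inside the range of the other controls (11.51 to 11.77).

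A related sequence was read apart from Hmga2. Hmga2-ps1, a processed pseudogene named for its likeness to Hmga2, has a probe set of its own, which stood at 6.38 ± 0.28 in Grb2_cKO and 6.6 ± 0.07 in controls (SD, n = 4). Its log2 difference of -0.22 (SE 0.12, limma adjusted p = 0.238) did not pass. How far either probe set reads the other's transcript is unknown here, so the share of Hmga2 in each is uncertain.

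Lin28b had the smallest spread of the 4 within Grb2_cKO. It was a dim probe set, below the median of all probe sets on the arrays (6.61 to 6.72). Its log2 values in Grb2_cKO were 6.08, 6.06, 6.05 and 5.99, and 6.65, 6.49, 6.41 and 6.49 in controls. The groups did not overlap, and the gap between the highest Grb2_cKO embryo and the lowest control was wider than the spread within Grb2_cKO. The means were 6.04 ± 0.04 and 6.51 ± 0.1 (SD, n = 4 each), a log2 difference of -0.46 (SE 0.07, 95% interval -0.62 to -0.31, limma adjusted p = 0.00101, exact permutation p = 0.0286). On the array's scale the Grb2_cKO signal was 72.5% of the control signal (65.0% to 80.7%), background included, so the remaining share of the transcript is not known. Of all genes 6.15% had a lower log2 difference. The sex-adjusted difference of Lin28b was -0.36 (adjusted p = 0.0962), and control replicate 3 was the lowest control, at 6.41, still above all 4 Grb2_cKO embryos.

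Lin28a, the paralog that directs the uridylation of let-7 precursors by TUT4 and TUT7, showed no such shift. Its log2 values were 6.87, 6.78, 6.73 and 6.4 in Grb2_cKO and 6.5, 6.85, 6.8 and 6.49 in controls, with the groups fully mixed. The means were 6.7 ± 0.2 and 6.66 ± 0.19 (SD, n = 4 each). The log2 difference was 0.04 (SE 0.12, limma adjusted p = 0.863), and its sign turned after quantile normalization (-0.02) and median centring (-0.03). The 95% interval of -0.24 to 0.31 leaves out a fall in signal of the size of that of Lin28b. This probe set was dim too, near the median of all probe sets on the arrays (6.61 to 6.72). Its signal includes background, so whether the Lin28a transcript itself changed is not known.

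Whether the LIN28 paralogs differed in their change was tested within embryos, since values of different probe sets cannot be compared as levels. Lin28a minus Lin28b was 0.79, 0.72, 0.68 and 0.42 in Grb2_cKO and -0.14, 0.36, 0.38 and 0.0 in control replicates 1 to 4. The groups did not overlap, but the lowest Grb2_cKO embryo, replicate 4, and the highest control, replicate 3, were close together. The difference between groups was 0.5 (SE 0.16, two-sided exact permutation p = 0.0286, the smallest possible). Only this pair of the planned paralog pairs had both genes measured, so no adjustment over pairs was needed. Control replicate 3, with Y-linked signal, was the highest control at 0.38, close to replicate 2 at 0.36 and above replicates 1 and 4. The paralog difference was not fitted with a sex adjustment. In the sex-adjusted fit of each gene Lin28a stood at -0.1 and Lin28b at -0.36. The probe sets of Lin28a and Lin28b were each dim, so the test compares signals with background included.

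Igf2bp3, which binds and stabilizes fetal messenger RNAs, was the member at the edge of the threshold. Its log2 values were 10.5, 10.73, 10.53 and 10.53 in Grb2_cKO and 11.1, 10.8, 10.69 and 10.84 in controls. Grb2_cKO replicate 2 was the highest of its group and control replicate 3 the lowest of its own, and these made the groups overlap. The means were 10.57 ± 0.11 and 10.86 ± 0.17 (SD, n = 4 each), a log2 difference of -0.28 (SE 0.1, 95% interval -0.5 to -0.07, limma adjusted p = 0.0537, exact permutation p = 0.0571). The adjusted p passed after median centring (0.0316, difference -0.35), without the dimmest 25% of genes (0.0341), with a trended and robust prior (0.0248), and without Grb2_cKO replicate 2 (0.0349) or control replicate 3 (0.0372). It did not in the sex-adjusted fit, at -0.12 (adjusted p = 0.734). Control replicate 3 lay closer to Grb2_cKO than to the other controls, at 0.65 of the way.

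**Figure D1:**
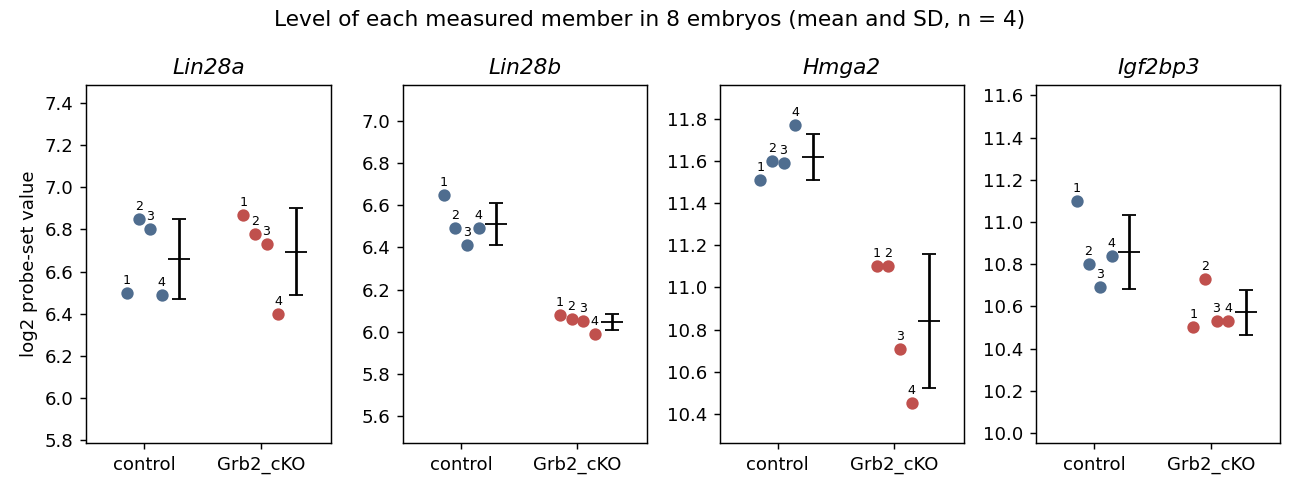
Log2 probe-set values of the 4 measured members in each embryo, numbered by replicate, with the mean and SD (n = 4) beside the points. All panels span the same range of log2 units; Hmga2 and Lin28b separate the groups, Lin28a does not, and Igf2bp3 overlaps through Grb2_cKO replicate 2 at 10.73 and control replicate 3 at 10.69.

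Other ways of fitting gave the same signs for Lin28b, Hmga2 and Igf2bp3. With control replicate 3 as the only control, a comparison within the sex of the Grb2_cKO embryos, the log2 difference was -0.75 for Hmga2 and -0.37 for Lin28b. Replicate 3 was the only control with Y-linked signal. The sex-adjusted fit (-0.75 and -0.36) therefore rests on nearly the same contrast with 1 embryo and is not a separate line of evidence. With 1 control the fit assumes that it varies like the Grb2_cKO embryos. The mean of erythroid genes was also higher in Grb2_cKO, 7.61 to 8.22 against 6.99 to 7.42. LIN28B and the IGF2BP proteins are known from fetal blood cells as well as from kidney, so erythroid content was fitted as a covariate. The difference was then -1.19 for Hmga2 (adjusted p = 0.0718) and -0.4 for Lin28b (0.218). Of the 7 measured erythroid genes 5 rose, and Tfrc, a transferrin receptor gene named here after its value was seen, fell by 0.91. The part of blood content in these results was not tested further.

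**Figure D2:**
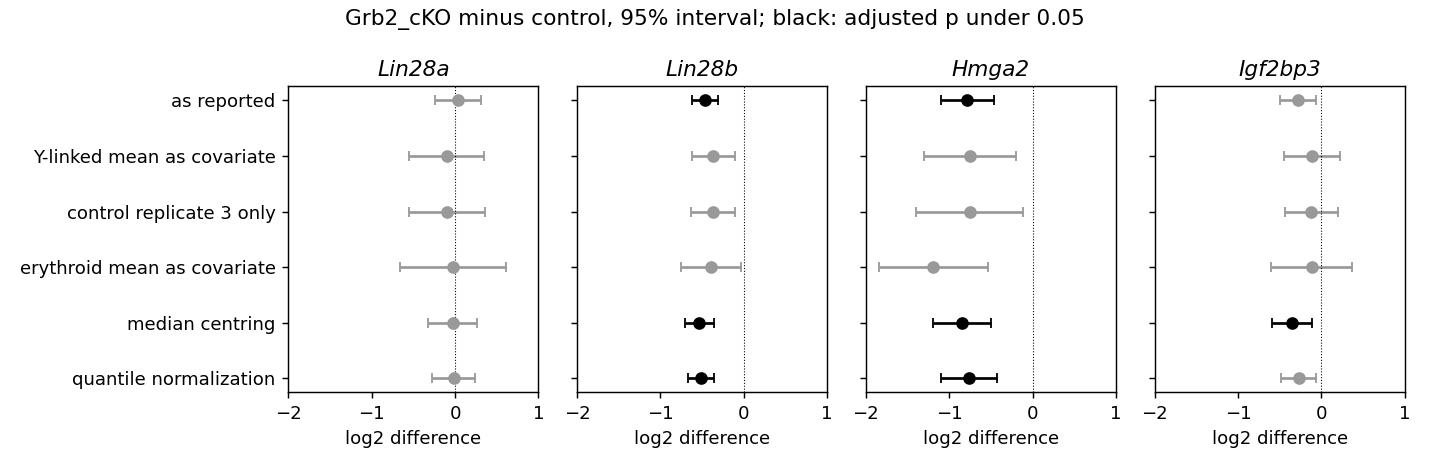
Log2 difference of each member, Grb2_cKO minus control, with its 95% interval, as reported and under 5 other fits. Black marks an adjusted p under 0.05: Hmga2 and Lin28b pass in the reported fit and both scalings and miss in the 3 fits that address sex and blood content, where their intervals widen.

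Markers of the kidney's cell types moved beside these values. Of the 12 nephron progenitor markers 9 fell and 0 rose (list mean 8.95 to 9.4 in Grb2_cKO, 10.03 to 10.21 in controls), and of 9 measured proliferation genes 8 fell (10.69 to 10.93, against 11.36 to 11.41). Of 8 ureteric tip markers 7 fell, among them Ret by 2.46, and 9 of 10 stroma markers rose. Of 9 measured ureteric trunk markers 5 fell, 0 rose and 4 did not pass, with a median log2 difference of -0.41. Calb1, at -3.53, had the largest fall of these 9. Early nephron and podocyte markers split: of 6 measured, 4 fell, among them Wnt4 by 1.06, and 2 rose. The 2 that rose, Podxl by 0.92 and Nphs1 by 0.73, were named after their values were seen. After sex adjustment 1 of the 6 passed. Over all genes 14.3% were lower and 13.7% higher. Macrophage markers rose in 6 of 8 (list mean 8.32 to 8.71, against 7.43 to 7.62), among them Fcer1g, an Fc receptor subunit gene, by 1.91, and Adgre1, which encodes F4/80, by 1.12. Endothelial markers rose in 5 of 8 (10.13 to 10.38, against 9.88 to 9.92), and in 3 after median centring. Fewer passed after sex adjustment: 5 nephron progenitor, 5 proliferation, 6 tip, 3 trunk, 5 stroma, 4 macrophage and 0 endothelial markers. With the erythroid covariate these counts were 4, 3, 6, 2, 0, 2 and 0. Six2, which keeps nephron progenitors undifferentiated, stood at 10.22, 10.14, 8.37 and 8.44 in Grb2_cKO replicates 1 to 4, and Calb1, a marker of the ureteric epithelium, at 8.75, 8.55, 7.4 and 7.18. In these, as in Hmga2, replicates 3 and 4 had the lowest values of the 4. In Lin28b the 4 replicates lay within 5.99 to 6.08. The part of cell composition in the falls of Hmga2 and Lin28b was not tested.

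Likeness to other genes was measured as the root mean square difference of log2 values over the 8 embryos, each gene centred on its own mean, among 17155 genes. This is a description of these embryos, in which the groups' difference dominates, and says nothing of shared function. Nearest to Hmga2 were Pclaf, a replication factor that binds the sliding clamp PCNA (0.055 log2 units), Cenph, a kinetochore gene (0.064), and Sox11, a transcription factor gene of embryonic mesenchyme and neurons (0.08). Like Hmga2, these had their lowest values in Grb2_cKO replicates 3 and 4: Pclaf was 10.43 and 10.48 in replicates 1 and 2, and 10.09 and 9.71 in replicates 3 and 4. Their log2 differences were -0.74, -0.73 and -0.8. Nearest to Lin28b were Sypl, a vesicle membrane protein gene (0.028), Vps36, a part of the ESCRT-II sorting complex (0.033), and Sfr1, a recombination repair gene (0.034), with differences of -0.51, -0.46 and -0.47. In these, as in Lin28b, control replicate 1 was the highest control and control replicate 3 the lowest.

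**Figure D3:**
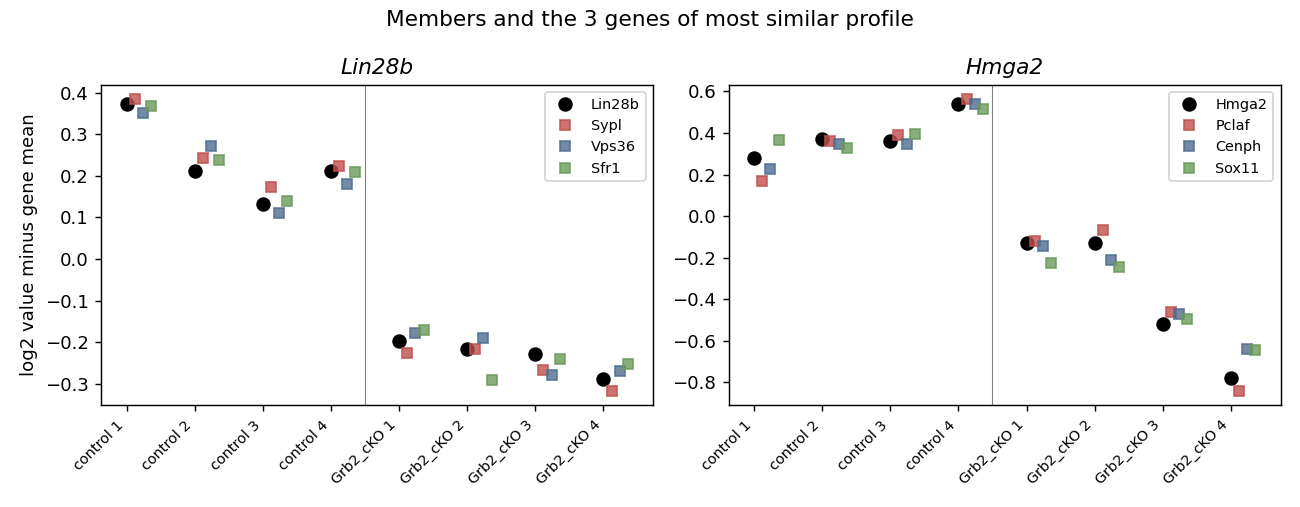
Log2 values of Lin28b and Hmga2 and of the 3 genes nearest to each, centred on each gene's mean, by embryo. The genes near Hmga2 share the lower values of Grb2_cKO replicates 3 and 4, and those near Lin28b share the high control replicate 1.

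Since Lin28b and Hmga2 were the members that fell, the 250 bases before their start sites are shown (RefSeq, GRCm38.p6, both on the minus strand and printed in the direction of transcription). The capitals mark matches, sought on both strands, to the E-box CACGTG, which MYC family proteins bind, the GC box GGGCGG of SP factors and the ETS core CCGGAA. The motifs do not overlap here. Lin28b, at chr10:45470202-45470451, held 1 E-box, as do 6.02% of 32851 RefSeq promoters in the same window, and Igf2bp3 held 1 as well. Hmga2, at chr10:120476470-120476719, held 1 GC box, found in 32.7%. The ETS core, found in 3952 of the 32851, was in neither window. The GC content was 39.2% for Lin28b and 56.4% for Hmga2. These letters describe the windows and show no binding.
Lin28b: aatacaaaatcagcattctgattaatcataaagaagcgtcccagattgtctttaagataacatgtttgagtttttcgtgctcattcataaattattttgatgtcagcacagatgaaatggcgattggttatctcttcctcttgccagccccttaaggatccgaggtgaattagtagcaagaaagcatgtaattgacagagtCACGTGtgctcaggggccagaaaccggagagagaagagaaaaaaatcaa
Hmga2: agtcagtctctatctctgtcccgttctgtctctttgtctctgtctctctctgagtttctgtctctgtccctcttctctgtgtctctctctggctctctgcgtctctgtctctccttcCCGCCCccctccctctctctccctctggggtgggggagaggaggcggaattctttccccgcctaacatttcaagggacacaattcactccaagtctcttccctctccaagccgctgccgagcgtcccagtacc

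Most let-7 precursor genes, on which LIN28 acts, did not pass the threshold. Of 14 listed genes 12 were measured, of which 2 were higher, 1 was lower and 9 did not pass (median log2 difference 0.08). The 3 called are 25% of the 12, beside 28.1% of all genes. The arrays read long transcripts amplified from total RNA, so these values describe precursor loci and say nothing of mature let-7. The sex-adjusted values of the 3, none past the threshold in limma, are given with each gene.

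Mirlet7e was the clearest of them. It stood at 8.05, 7.85, 7.97 and 8.5 in Grb2_cKO and at 6.9, 7.08, 7.32 and 7.35 in controls, with no overlap. The log2 difference was 0.93 (SE 0.15, limma adjusted p = 0.00147), or 1.9-fold, and 0.75 after sex adjustment (adjusted p = 0.107). A second probe set named for it was dimmer and stood at 0.54 between groups that overlapped.

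Mirlet7c-1 was 7.94, 8.39, 8.05 and 8.13 in Grb2_cKO and 7.67, 7.86, 7.19 and 6.41 in controls. The groups did not overlap, but the controls were widely spread, and Grb2_cKO replicate 1 and control replicate 2 were close. The log2 difference of 0.85 (SE 0.27, limma adjusted p = 0.041) missed the threshold after both scalings (quantile normalization 0.0513, median centring 0.0545). It also missed it without any one of the 4 Grb2_cKO embryos (0.0568 to 0.0967) or without control replicate 3 (0.0862). Its sex-adjusted difference was 0.94 (adjusted p = 0.279). Mirlet7a-2, at 0.57 (SE 0.19, adjusted p = 0.0518), did not pass.

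Mirlet7f-1 was the precursor that fell, at a dim level. It stood at 2.17, 3.52, 2.12 and 2.91 in Grb2_cKO and at 5.19, 4.16, 3.36 and 4.26 in controls, and the groups overlapped. The log2 difference was -1.56 (SE 0.4, limma adjusted p = 0.0149, exact permutation p = 0.0571), and its other probe set stood at -0.22. After sex adjustment it was -0.67 (adjusted p = 0.556). Mirlet7a-1 and Mirlet7d, which lie beside Mirlet7f-1 on chromosome 13, stood at 0.04 and -0.33 (adjusted p = 0.775 and 0.286).

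The other precursors lay between -0.24 and 0.31 and did not pass. Mirlet7i stood at -0.24 (adjusted p = 0.139), Mirlet7g at -0.18 (0.446) and Mirlet7b at 0.31 (0.267). Mirlet7c-2 stood at 0.22 (0.239), Mir98 at 0.12 (0.533) and Mirlet7f-2 at 0.01 (0.957).

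**Figure D4:**
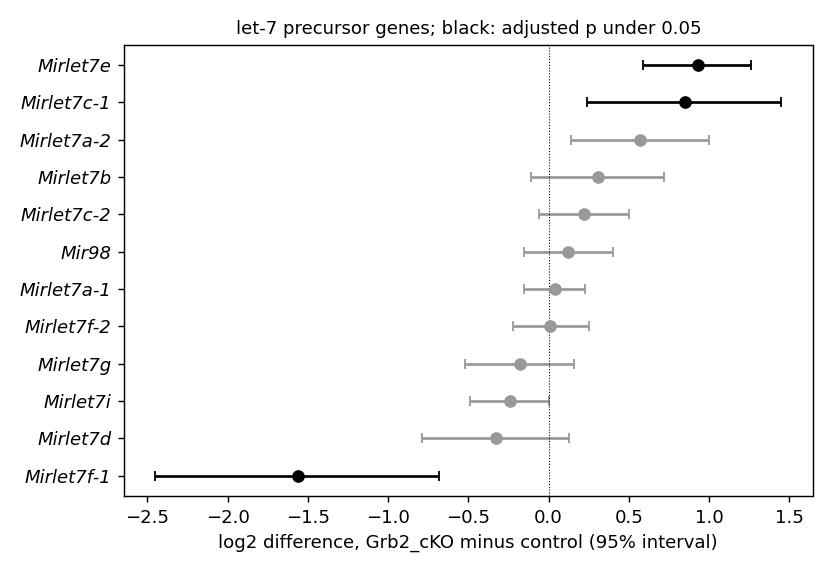
Log2 difference, Grb2_cKO minus control, and 95% interval of the 12 measured let-7 precursor genes. Black marks an adjusted p under 0.05: Mirlet7e at 0.93 and Mirlet7c-1 at 0.85 were higher and Mirlet7f-1 at -1.56 was lower.

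Among the genes that process let-7, those of LIN28's own pathway of precursor decay did not pass. Tut4 and Tut7, the uridylating enzymes, stood at -0.15 and 0.14 (limma adjusted p = 0.229 and 0.173). Dis3l2, the nuclease that degrades the tailed precursor, stood at 0.01 (0.931). Apart from that pathway, Trim71, a let-7 target with its own timing role, stood at -0.24 (0.0682). These 4 were named after their values were seen. Of 23 measured processing genes 6 fell, 1 rose and 16 did not pass, with a median of -0.14. The 7 called are 30.4% of the 23, near the 28.1% of all genes. After median centring 11 were lower. Msi2, a Musashi RNA-binding protein gene, fell by 0.65 (SE 0.07) and was the only one of the 7 to pass after sex adjustment. It missed the threshold with the erythroid covariate (-0.53, adjusted p = 0.11) and with control replicate 3 as the only control (-0.64, adjusted p = 0.0645), and its other probe set stood at -0.2 between groups that overlapped. Syncrip, an RNA-binding protein gene, fell by 0.61 (SE 0.1), Ddx5, a helicase of the microprocessor, by 0.71 (SE 0.16), and Tut1 by 0.38 (SE 0.09). The controls of Ddx5 were widely spread (11.51 to 12.43). With the erythroid covariate its log2 difference was -0.12 (limma adjusted p = 0.897), and 0 of the 23 genes passed in that fit. Ago4, an Argonaute gene, rose by 0.37 (SE 0.08).

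Among known let-7 targets other than the members, 9 of 39 measured genes rose, 8 fell and 22 did not pass, and the median was -0.05. These counts share genes with other lists: of the risen targets, Col3a1 is also a stroma marker and Insr is counted again in the IGF axis. Mycn, a MYC family transcription factor gene of progenitors, fell by 1.13 (SE 0.1), from 7.92 to 8.3 in controls to 6.79 to 7.07 in Grb2_cKO. Rrm2, which makes DNA precursors and also stands in the proliferation list, fell by 0.84 (SE 0.09), and Slc20a1, a phosphate transporter gene, by 0.78 (SE 0.11). In the other direction Tgfbr3, a TGF-beta co-receptor gene, rose by 0.88 (SE 0.12) and Gdf6, a BMP family ligand gene, by 0.57 (SE 0.09). After sex adjustment 5 of the 17 passed, among them Mycn at -1.07 (adjusted p = 0.015), Rrm2 at -0.72 (0.0239) and Tgfbr3 at 0.92 (0.0337). The 17 called targets are 43.6% of those measured, beside 28.1% of all genes, and no test of the list was made. Fewer passed in the other fits for sex and blood content: 4 with the erythroid covariate, all lower, where Tgfbr3 missed the threshold at 1.04 (adjusted p = 0.0759), and 1, also lower, with control replicate 3 as the only control.

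Genes of the IGF axis, which IGF2BP proteins are named for, rose or did not pass. Of the 8 measured, 5 were higher, 0 lower and 3 did not pass, with a median of 0.25. The 5 called are 62.5% of the 8, beside 28.1% of all genes, and no test of the list was made. Igf2, the fetal growth factor whose messenger RNA IGF2BP proteins bind, stood at 12.42, 12.3, 12.37 and 12.49 in Grb2_cKO and at 12.02, 11.88, 12.07 and 12.13 in controls. It rose by 0.37 (SE 0.08, limma adjusted p = 0.00522) without overlap of the groups, and its sex-adjusted difference was 0.33 (adjusted p = 0.187). Igf1, the growth factor of later life, rose by 1.18 (SE 0.13) and alone of the 5 passed after sex adjustment. It missed the threshold with the erythroid covariate (1.33, adjusted p = 0.0541) and with control replicate 3 as the only control (1.04, adjusted p = 0.0792). Macrophage, stroma and endothelial marker means, given above, were higher in the same embryos, and their part in the IGF axis values was not tested. Irs1, a receptor substrate gene, rose by 0.45 (SE 0.11), but missed the threshold as the mean of its probe sets (0.25, adjusted p = 0.0668). Igf2r, which clears IGF2, rose by 0.28 (SE 0.07). Insr rose by 0.23 (SE 0.07), and missed the threshold without any one embryo other than Grb2_cKO replicate 1 (adjusted p = 0.0543 to 0.0773) and after median centring (0.112).

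Of 7 measured transcripts known to be bound by IGF2BP proteins, 2 rose and 1 fell. The 3 called are 42.9% of the 7, beside 28.1% of all genes, and no test of the list was made. Beside Igf2, Cd44, an adhesion receptor gene, rose by 0.33 (SE 0.1), and Ctnnb1, which encodes beta-catenin, fell by 0.21 (SE 0.06). Cd44 missed the threshold after quantile normalization (adjusted p = 0.0566), median centring (0.0505) and without Grb2_cKO replicate 4 (0.0614) or control replicate 2 (0.07) or 4 (0.0631). Ctnnb1 missed it without any one embryo other than Grb2_cKO replicate 1 and control replicate 4 (0.0585 to 0.104). After sex adjustment Igf2 (above), Cd44 (0.21, adjusted p = 0.5) and Ctnnb1 (-0.2, adjusted p = 0.34) all missed it.

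Of the 9 measured HMGA partners, 2 were higher, 1 lower and 6 did not pass, with a median of 0.11. The 3 called are 33.3% of the 9, near the 28.1% of all genes. Twist1, a mesenchymal transcription factor gene, rose by 0.77 (SE 0.13), and E2f1, a cell cycle factor that HMGA2 is known to activate through RB, fell by 0.33 (SE 0.07). Snai2 rose by 0.22 (SE 0.07) and missed the threshold after median centring (adjusted p = 0.138) and without any one embryo other than Grb2_cKO replicate 1 and control replicate 4 (0.0548 to 0.102). After sex adjustment Twist1 stood at 0.69 (adjusted p = 0.0989), E2f1 at -0.34 (0.154) and Snai2 at 0.17 (0.478). The cell cycle inhibitor genes Cdkn2a and Cdkn2b, which HMGA2 is known to hold down in stem cells, stood at -0.07 and 0.06 (adjusted p = 0.566 and 0.761) and were named after their values were seen.

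Other fetal growth genes went both ways, while Hmga2 and Lin28b fell. Of the 10 measured, 4 were higher, 3 lower and 3 did not pass, with a median of 0.1. The 7 called are 70% of the 10, beside 28.1% of all genes, and no test of the list was made. Mycn and Igf2, described above, are also in this list. The imprinted genes Dlk1, which restrains differentiation, and Plagl1, a zinc finger factor gene, rose by 1.48 (SE 0.12) and 0.81 (SE 0.08; its other, dim probe set stood at 0.2 with overlap), and Cdkn1c, a cell cycle inhibitor gene, rose by 0.62 (SE 0.12). Dlk1 was 11.17 to 11.64 in Grb2_cKO and 9.66 to 10.03 in controls. E2f3, a cell cycle factor gene, fell by 0.72 (SE 0.09), from 10.31 to 10.4 in controls to 9.44 to 9.81. After sex adjustment Dlk1, Plagl1, Mycn and E2f3 passed, 4 of the 7, and Cdkn1c stood at 0.57 (adjusted p = 0.145). With the erythroid covariate 3 passed, and with control replicate 3 as the only control 2, and Plagl1 missed the threshold in both (adjusted p = 0.0531 and 0.0589).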

How the data were processed

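RNA of 8 mouse embryonic kidney samples (4 Grb2_cKO, 4 control; 200 ng of total RNA each) was measured on 1-colour arrays. The deposited table holds log2 probe-set values made by the authors with the Transcriptome Analysis Console, per the submitters' processing notes. How background and normalization were handled is not stated there. That the scale is log2 was read from the values (1.25 to 14.08, array medians 6.61 to 6.72). No value was normalized again. The number of arrays limits the precision.

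Of 41345 probe sets, 23521 had 1 gene symbol, 1814 several and 16010 none in the platform's annotation. Symbols were updated to the GRCm38.p6 RefSeq table through the Entrez identifier for 23328. Per gene the probe set with the highest mean over the 8 arrays was kept, giving 22180 genes. Groups were compared in limma 3.58.1 (R 4.3.3) with empirical Bayes moderation, no covariate and Benjamini-Hochberg adjustment over every gene, and called at 0.05. Adjusted p-values are from this fit unless a setting is named. The exact permutation tests are two-sided over 70 assignments. The fit was tested on simulated data.

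Named genes were the members, Grb2, all let-7 precursors, up to 5 genes of smallest p per pathway list, the first 2 of each marker list and the 3 nearest profiles per called member. Others are marked. Not all of these are printed. Members and lists were chosen with earlier results of these data known. Hmga1 was not analysed here. The alternatives were 2 scalings, averaging the probe sets of a gene, dropping dim genes, array weights, a robust prior with a trend, covariates (the Y-linked mean, called sex-adjusted, or the erythroid mean), only control replicate 3 as control, and omitting each embryo in turn.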

Additional observations from a re-analysis of the deposited data

Results flagged for a closer look

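In a group of 4, the value of a single embryo was marked where its gap to the nearest other exceeded 0.829 of the group's range (Dixon's 95% value). Over 64 named genes and 128 groups 11 values were marked, where chance alone marks about 1 in 20 groups. The 128 groups reuse the same 8 embryos, so they are not independent. Among the members, Igf2bp3 in Grb2_cKO replicate 2 was the highest of its group at 10.73, against 10.5 to 10.53 in the others, and without that embryo Igf2bp3 passed the threshold.

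Of the let-7 genes and their targets and processing factors, Mirlet7f-2 was low in control replicate 4 at 1.7 (others 1.92 to 1.94). Syncrip was high in control replicate 1 at 11.52 (11.23 to 11.28), and Tgfbr3 in control replicate 2 at 9.14 (8.87 to 8.91). Of the IGF2BP-bound and fetal growth genes, Cd44 in Grb2_cKO replicate 4 was high at 7.1 (6.82 to 6.86) and Plagl1 in the same embryo at 12.47 (12.2 to 12.22).

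Of the markers, Calb1 was high in control replicate 1 at 11.71 (11.42 to 11.44), Foxd1 low in Grb2_cKO replicate 2 at 9.36 (9.76 to 9.82) and Sox10 high in Grb2_cKO replicate 1 at 6.33 (6.17 to 6.19). The Y-linked genes Eif2s3y and Kdm5d were high in control replicate 3, at 9.95 (others 4.21 to 4.37) and 9.7 (4.16 to 4.22).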

How the results depend on the processing

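Counts of genes and of members called stayed within 1.5 times those reported under both scalings, the filter on dim genes, the mean of probe sets, the trended and robust prior and array weights. Leaving out each embryo gave 4894 to 5955 genes and 2 to 3 members. With the Y-linked covariate 1246 genes and 0 members passed in limma, with the erythroid covariate 460 and 0, and with control replicate 3 as the only control 285 and 0. These fits have fewer degrees of freedom or a covariate that moves with the groups. Before adjustment the limma p of Lin28b and Hmga2 was below 0.05 with the Y-linked and with the erythroid covariate. The Y-linked covariate fit and the fit with control replicate 3 alone rest on nearly the same contrast with 1 control embryo. Under the 3 fits in the order given, Lin28b stood at -0.36, -0.4 and -0.37, and Hmga2 at -0.75, -1.19 and -0.75. Grb2 stood at -0.4 (adjusted p = 0.1), -0.53 (0.131) and -0.41. Igf2bp3 passed at -0.35 with median centring, and at -0.28 without the dimmest 25% of genes and with the trended and robust prior. Without each embryo in turn, Lin28b ranged from -0.5 to -0.42, Hmga2 from -0.87 to -0.65, Igf2bp3 from -0.34 to -0.2 (adjusted p = 0.0349 to 0.119), Lin28a from -0.02 to 0.14, Grb2 from -0.5 to -0.4, and Lin28a minus Lin28b from 0.41 to 0.58. For the last, no exact permutation p is given here with an embryo left out. The let-7 processing list had 12 called members with median centring and 1 with the Y-linked covariate, and the target list 5 with that covariate, against 7 and 17. No paired analysis was possible because the labels give no replicate numbers that the groups share. Igf2bp1 and Igf2bp2 were not analysed here, and a dim probe set cannot be told from background.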
